A study of Mus musculus with 28 samples.

Results

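Here 6 arrays of WT mouse embryonic fibroblasts (MEFs) were set against each other, 2 from cells treated with doxorubicin (Doxo) and 4 from cells treated with H2O2. They were taken by their titles from the 28 arrays of the series, and every one of the 45037 probe sets left after the control probe sets entered the contrast. The Doxo cells received 0.25 μg/ml for 4 h and the H2O2 cells 400 μM for 4 h. The 4 untreated WT arrays served as a common reference for both agents. The same contrast was read in p66-/- MEFs, which lack the largest protein made from the Shc1 gene, with 2 Doxo and 4 H2O2 arrays. The fit also held 4 untreated p66-/- arrays, and 4 untreated and 4 H2O2 arrays of p53-/- MEFs, which lack p53. Cells of all these groups came from embryos of 13.5 days and were used at passage 2, and all groups are MEFs in culture without any transgene. The labels give the strain as C57Bl/6, whereas the methods name another strain for the MEFs. The titles call the arrays of every group biological replicates, and the methods describe independent RNA preparations for each of them. The p-values of the fit measure the spread between preparations within groups, pooled over all 8 groups and not over the compared arrays alone.

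Doxo, an anthracycline, slides between the bases of DNA and traps topoisomerase II on it after the enzyme has cut both strands, and it can also be reduced and reoxidized to yield oxygen radicals. H2O2 is a diffusible oxidant that damages proteins and lipids as well as DNA. Both agents activate p53, the transcription factor that switches on genes of cell cycle arrest, repair and cell death, and both leave cultured fibroblasts arrested. The contrast of the 2 agents asks which transcripts separate the stressed states from each other.

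The Doxo arrays formed an array set of their own, and array set and agent cannot be told apart. The spike-in RNA bioB, which is added to every hybridization in a fixed amount, read 8.07 ± 0.12 on the 4 Doxo arrays (2 WT and 2 p66-/-) and 7.16 ± 0.38 on the 24 other arrays (log2 value, SD). The upper quartile of all values was 6.20 ± 0.02 on the Doxo arrays and 6.5 ± 0.07 on the others. The difference between the 3′ and 5′ probe sets of actin, a measure of RNA length, was 0.18 ± 0.03 in WT Doxo cells and 0.30 ± 0.08 in WT H2O2 cells (SD, n = 2 and 4). Within the WT H2O2 group bioB read 6.64 and 6.71 on replicates 1 and 2, and 7.68 and 7.44 on replicates 3 and 4. Replicate 3 stood nearer to the Doxo arrays than the rest. Its upper quartile was 6.35, against 6.40, 6.47 and 6.49 in replicates 1, 2 and 4. Its actin difference was 0.28 and lay within the range of the other 3. The counts of called genes, of agent-specific genes and of list members were therefore also taken without this array.

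Promoters of 2 kinds bear on gene groups that the contrast split, and 6 of them are shown for that reason. The first pair comes from the heat shock genes and the other 4 from genes of G2 and mitosis. Each is the 200 bases before the first transcription start listed by RefSeq, on the gene's own strand, 5′ to 3′, from build GRCm38.p6. Capitals mark GAANNTTC in the heat shock genes, the core of the element bound by heat shock factors. In the cell cycle genes they mark CCAAT, the box bound by NF-Y, and the CHR motif TTTGAA or TTTAAA, bound by the complexes that silence cell cycle genes, on either strand. Hspa1b lies at chr17:34959239-34959438 on the minus strand and Dnaja1, the first of 3 listed starts, at chr4:40722268-40722467 on the plus strand. Cdc20 lies at chr4:118437344-118437543 (minus), Espl1 at chr15:102296093-102296292 (plus), Smc2 at chr4:52439021-52439220 (plus) and Top2a at chr11:99024190-99024389 (minus).
Hspa1b: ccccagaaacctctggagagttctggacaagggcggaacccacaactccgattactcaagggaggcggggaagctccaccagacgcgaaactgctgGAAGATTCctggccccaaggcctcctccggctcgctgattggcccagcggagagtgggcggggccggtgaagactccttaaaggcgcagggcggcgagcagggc
Dnaja1: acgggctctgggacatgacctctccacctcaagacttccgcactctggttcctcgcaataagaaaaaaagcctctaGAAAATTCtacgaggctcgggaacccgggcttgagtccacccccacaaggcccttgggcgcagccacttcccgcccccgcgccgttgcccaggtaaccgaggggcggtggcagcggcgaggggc
Cdc20: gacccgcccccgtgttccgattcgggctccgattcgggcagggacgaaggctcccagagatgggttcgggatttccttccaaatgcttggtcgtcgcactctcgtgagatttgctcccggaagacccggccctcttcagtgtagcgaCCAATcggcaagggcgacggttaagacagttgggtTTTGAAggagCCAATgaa
Espl1: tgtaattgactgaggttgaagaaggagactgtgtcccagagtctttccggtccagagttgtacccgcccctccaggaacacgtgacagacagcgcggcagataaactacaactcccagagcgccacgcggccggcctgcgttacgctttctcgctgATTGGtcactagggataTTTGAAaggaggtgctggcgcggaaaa
Smc2: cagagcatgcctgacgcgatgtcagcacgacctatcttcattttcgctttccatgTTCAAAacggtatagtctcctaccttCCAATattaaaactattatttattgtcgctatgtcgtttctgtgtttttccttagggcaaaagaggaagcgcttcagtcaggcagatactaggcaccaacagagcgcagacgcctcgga
Top2a: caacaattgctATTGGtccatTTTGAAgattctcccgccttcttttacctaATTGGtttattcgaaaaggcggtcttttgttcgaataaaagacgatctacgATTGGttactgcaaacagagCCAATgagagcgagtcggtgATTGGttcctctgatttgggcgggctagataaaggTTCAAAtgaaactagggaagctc
Hspa1b, Cdc20 and Espl1 were higher in Doxo cells than in H2O2 cells, and Dnaja1, Smc2 and Top2a were lower, so that promoters holding the same motif stood on both sides. Over 27025 genes with such a sequence, GAANNTTC was found in 5.41%, CCAAT in 30% and CHR in 20.2%. In the list of G2 and mitosis genes, CCAAT was found in 24 of 32 and CHR in 15 of 32. CCAAT was found in 3 of 3 members that were higher in Doxo cells and in 9 of 14 that were lower, and CHR in 2 of 3 and in 4 of 14. GAANNTTC was found in 4 of 12 heat shock genes, of which 1 was higher and 1 lower in Doxo cells. A match is a run of letters in this window and not a measured binding site.

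Many transcripts separated the agents. A probe set is said to be called where limma gave an adjusted p under 0.05 and the difference was at least 1.5-fold, and a gene was read at its probe set with the highest mean. Of 45037 probe sets 8218 were called, or 18.2%, with 3450 higher (7.66%) and 4768 lower (10.6%) in Doxo cells than in H2O2 cells. The split depended on the centring, with 2120 higher and 5388 lower when the median difference of all probe sets was subtracted. Of 17097 genes 4301 were called (25.2%), 2046 of them higher (12%) and 2255 lower (13.2%). Among the 7938 genes with a mean of at least 6 in either group, 21.2% were higher and 24.8% lower, and these are the shares against which lists of well expressed genes are read. In 9091 genes the Doxo and H2O2 arrays did not overlap (53.2%), with the Doxo arrays above in 5921 (34.6%) and below in 3170 (18.5%). The median difference over all genes was 0.16 on the log2 scale (Doxo minus H2O2), so that the groups were not centred on each other. An exact test of 2 arrays against 4 cannot go below a p of 0.067, so that single genes were judged by the limma fit alone.

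The counts depended on single arrays and on the fit. Without WT H2O2 replicate 3, 5355 genes were called, and 4262 of the 4301 were among them in the same direction. Without WT Doxo replicate 2, 4319 probe sets were called, a setting that leaves a single Doxo array assumed to vary like the other groups. A fit of the 2 compared groups alone called 3564 probe sets, and 4781 were called with H2O2 replicates 3 and 4 only. The methods' test on the 6 arrays gave 6391 at their threshold of unadjusted p and 1.5-fold, and 0 after Benjamini-Hochberg adjustment. That test takes its spread from the 6 arrays alone. Its SE was 0.32 for Srsf1 and 0.29 for Gadd45a, against 0.16 and 0.38 in the main fit. The share of called probe sets also followed the level, with 0.355% in the lowest decile by mean and 50.4% in the ninth. Set against untreated cells, which both comparisons share, Doxo called 2240 genes higher (13.1%) and 2475 lower (14.5%). H2O2 called 289 higher (1.69%) and 347 lower (2.03%). Only the Doxo comparison holds the Doxo array set, so that these counts do not rank the agents.

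**Figure D1:**
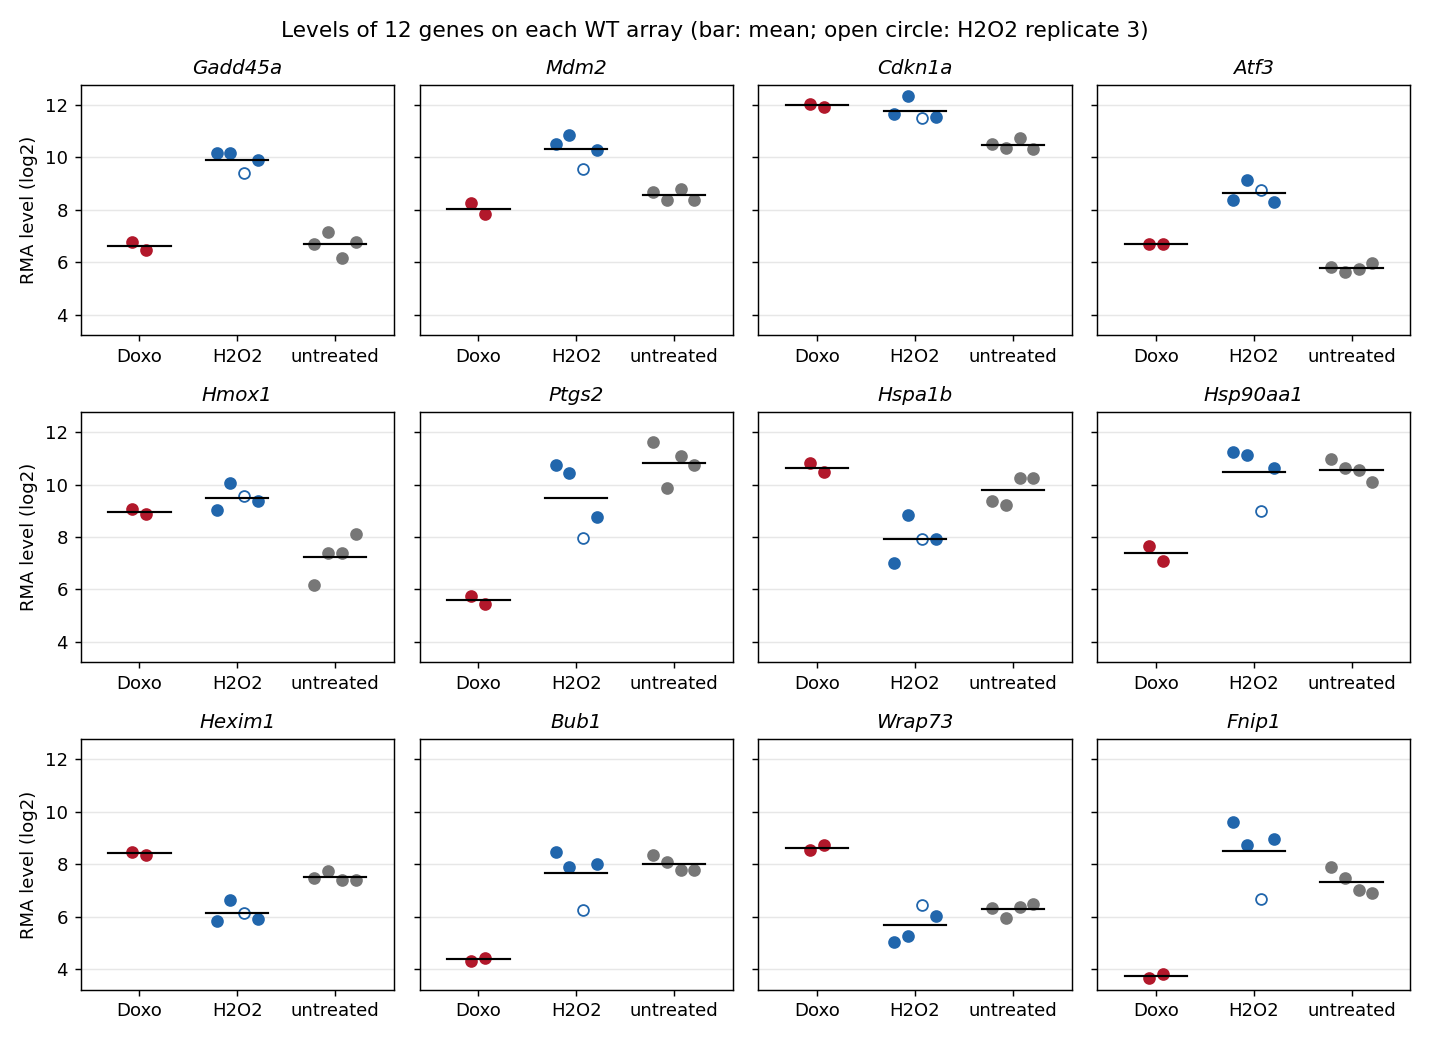
Log2 values of named genes on every WT array, with 2 Doxo, 4 H2O2 and 4 untreated arrays as points (H2O2 replicate 3 open) and horizontal bars at the group means. Gadd45a and Mdm2 were high on the 4 H2O2 arrays and near the untreated level on both Doxo arrays, whereas Cdkn1a was high after either agent.

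Members of the p53 target list lay on both sides of the contrast, in shares (given below) that were near those of well expressed genes. Gadd45a, which slows the cell cycle after DNA damage, read 6.79 and 6.48 in Doxo cells, against 10.15, 10.16, 9.39 and 9.92 in H2O2 cells and 6.69 ± 0.41 in untreated cells (log2 values, SD, n = 4). The Doxo arrays lay among the untreated ones and all H2O2 arrays lay far above. The difference was -3.27 ± 0.38 on the log2 scale (SE, adjusted p = 2.5e-06), a level 9.62-fold higher in H2O2 cells. Mdm2, which encodes the ubiquitin ligase that degrades p53, read 8.26 and 7.83 in Doxo cells and 10.52, 10.84, 9.56 and 10.29 in H2O2 cells, with a difference of -2.26 ± 0.36 (adjusted p = 8.6e-05). It stood at 8.69, 8.38, 8.80 and 8.39 in untreated cells, from which it was called after H2O2 (1.74) and not after Doxo (-0.52, adjusted p = 0.26). Trp53inp1, a stress protein that promotes p53 activity, read 6.71 and 6.79 in Doxo cells and 11.05, 11.45, 8.74 and 10.72 in H2O2 cells (difference -3.74, adjusted p = 0.0018). Trp53inp1 was not among the H2O2-specific rises described below. Eda2r, a death receptor, belonged to those rises with Gadd45a and Mdm2 and had a difference of -1.69 (adjusted p = 0.012). Its H2O2 arrays stood at 9.03, 9.80, 7.48 and 8.43 and its Doxo arrays at 7.10 and 6.90.

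Other p53 targets rose after both agents. Cdkn1a, the cell cycle inhibitor p21, read 12.05 and 11.94 in Doxo cells and 11.65, 12.33, 11.50 and 11.55 in H2O2 cells. The groups overlapped, and the direct difference of 0.24 ± 0.26 did not pass (adjusted p = 0.51). Against untreated cells it rose by 1.5 after Doxo and by 1.27 after H2O2. Bbc3 (PUMA), a trigger of apoptosis, rose by 1.40 after Doxo and by 2.19 after H2O2, and its direct difference of -0.79 was called (adjusted p = 0.044). Ppm1d, a phosphatase that turns p53 signalling off, rose by 0.81 after Doxo and 1.59 after H2O2, with a direct difference of -0.78 (adjusted p = 0.019).

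Higher in Doxo cells were 5 of the p53 targets. Dcxr, a sugar reductase, read 9.66 and 9.80 in Doxo cells and 7.21, 7.95, 8.56 and 7.85 in H2O2 cells, a difference of 1.84 ± 0.33 (adjusted p = 3e-04). The H2O2 arrays except replicate 1 stood a little above the untreated level of 7.30, 7.51, 7.46 and 7.28. Ephx1, an epoxide hydrolase, had a difference of 1.09, and Aen, a nuclease of p53-driven cell death, one of 0.96. Ei24 and Pidd1, which take part in p53-dependent cell death, had differences of 0.59 and 0.67, a little above the 1.5-fold limit. Centring the Doxo arrays by level, a setting chosen after the values were seen, gave 0.52 and 0.50 (limma adjusted p = 0.063 and 0.14). It left 3 targets higher and 10 lower. Of 33 measured targets 5 were higher (15.2%) and 10 lower (30.3%) in Doxo cells, with a median difference of 0.03 against 0.16 over all genes. These shares were near those of well expressed genes, 21.2% and 24.8%. Against untreated cells 15 of the 33 rose and 2 fell after Doxo, and 14 rose and 0 fell after H2O2. Leaving out each array in turn gave 2 to 6 higher and 3 to 11 lower, the fewest without Doxo replicate 2.

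Of 23 immediate early genes, which growth factors switch on, 12 were lower and 1 was higher in Doxo cells (52.2% and 4.35%), with a median of -0.90. Myc, the growth-promoting transcription factor, read 5.68 and 6.39 in Doxo cells, against 8.84, 9.56, 8.32 and 8.56 in H2O2 cells, a difference of -2.79 ± 0.32 (adjusted p = 2.1e-06). Its untreated values, between 8.16 and 9.16, overlapped the H2O2 values. Klf6, a zinc finger factor induced by growth factors and injury, read 6.25 and 5.81 in Doxo cells and 9.71, 9.39, 8.06 and 8.43 in H2O2 cells (difference -2.87). Jun, a component of the AP-1 factor, had a difference of -1.31, and Ier3 and Dusp1, an early response gene and the phosphatase that inactivates MAP kinases, had differences of -1.28 and -1.0. Klf2, a relative of Klf6, went the other way with a difference of 1.07 (adjusted p = 0.0065). Its H2O2 arrays, between 4.40 and 5.05, were all under the Doxo arrays at 5.51 and 6.08 and the untreated arrays at 6.07 to 6.5. Leaving out either Doxo array left 5 of the immediate early genes lower, and leaving out H2O2 replicate 2 left 7 lower.

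Of 9 measured feedback inhibitors of the ERK pathway, which the pathway itself induces, 4 were lower in Doxo cells (44.4%). Another 5 were not called and 0 were higher, against 24.8% lower and 21.2% higher among well expressed genes. Dusp4, a nuclear ERK phosphatase, read 4.63 and 4.88 in Doxo cells and 9.19, 8.67, 7.74 and 7.51 in H2O2 cells, with a difference of -3.52 ± 0.70 (adjusted p = 0.00077). Untreated replicate 2 read 5.11 where the other 3 untreated arrays lay near the H2O2 level. Spred1 and Spred2, which keep Ras from activating Raf, had differences of -2.36 and -1.88, and Spry2, another inhibitor of receptor signalling, one of -2.04. The number lower was 4 and the number higher 0 without each array in turn. Against untreated cells 8 of the 9 fell after Doxo and 4 after H2O2.

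Inflammatory and mechanical target genes moved in part. Ptgs2, the inducible cyclooxygenase, read 5.77 and 5.46 in Doxo cells, against 10.75, 10.45, 7.96 and 8.76 in H2O2 cells and 11.63, 9.86, 11.08 and 10.75 in untreated cells. The difference between the agents was -3.86 ± 0.89 (adjusted p = 0.0025), and H2O2 replicates 3 and 4 lay between the other H2O2 arrays and the Doxo arrays. The monocyte attractants Ccl2 and Ccl7 had differences of -2.49 and -2.83, and Tnfaip6, a secreted hyaluronan-binding protein, one of -1.54. Icam1, an adhesion molecule, was higher with 6.67 and 6.96 in Doxo cells and 3.34, 4.72, 5.91 and 6.58 in H2O2 cells (difference 1.68, adjusted p = 0.045). Of 22 genes of inflammatory secretion 1 was higher (4.55%) and 4 lower (18.2%). Ccn2 and Ankrd1, targets of the mechanosensitive YAP pathway, had differences of -2.30 and -2.95. Of 12 genes of that list 4 were lower (33.3%) and 0 higher, against 24.8% and 21.2% of well expressed genes. Leaving out either Doxo array left 2 of the inflammatory genes lower and none higher. It left 2 of the YAP and SRF targets lower without replicate 1 and 1 without replicate 2.

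Of 11 target genes of BMP and TGF-beta signalling 4 were higher in Doxo cells (36.4%), 3 were lower (27.3%) and 4 were not called. Bambi, a decoy receptor that BMPs induce, read 7.83 and 8.08 in Doxo cells, against 5.14, 4.88, 6.21 and 5.73 in H2O2 cells and 8.36, 7.16, 8.33 and 8.47 in untreated cells. The Doxo arrays stayed within the untreated range, while all H2O2 arrays were lower. Its difference between the agents was 2.46 ± 0.47 (adjusted p = 0.00048). Id4 and Id1, inhibitors of helix-loop-helix factors, had differences of 2.54 and 1.53, and Smad6, an inhibitory Smad induced by BMPs, one of 1.91. Lower in Doxo cells were Skil, a repressor of TGF-beta signalling, at 6.43 and 6.43 against 10.81, 10.49, 8.22 and 9.54 in H2O2 cells (difference -3.33), Smad7 (-1.27) and Tgif1 (-1.07). Leaving out each array in turn gave 1 to 5 higher and 2 to 3 lower, with 1 higher without Doxo replicate 2 and 2 higher without Doxo replicate 1 or H2O2 replicate 1.

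Heat shock genes were found on both sides of the contrast. Hspa1b, an inducible HSP70 chaperone, read 10.83 and 10.47 in Doxo cells, against 7.02, 8.83, 7.94 and 7.91 in H2O2 cells and 9.38, 9.23, 10.26 and 10.25 in untreated cells. The difference was 2.73 ± 0.53 (adjusted p = 0.00058), a 6.61-fold higher level in Doxo cells, and its change from untreated cells was 0.87 after Doxo and -1.85 after H2O2. Its near-identical copy Hspa1a had no probe set of its own here, so that the signal may come from either gene. Dnajb1, the main partner of HSP70, and Ahsa1, an activator of HSP90, had differences of 0.70 and 0.73. Hsp90aa1, the inducible HSP90, read 7.66 and 7.10 in Doxo cells, against 11.25, 11.13, 8.98 and 10.62 in H2O2 cells, a difference of -3.11 ± 0.60 (adjusted p = 0.00058). Untreated cells stood with the H2O2 cells at 10.98, 10.64, 10.54 and 10.09. The HSP90 cochaperone Chordc1 (-2.66), the HSP40 proteins Dnajb4 (-2.37) and Dnaja1 (-1.33), and the HSP110 relative Hspa4l (-1.42) were lower too. Of 15 measured genes 3 were higher (20%) and 5 lower (33.3%), and 7 were not called. These shares were near those of well expressed genes, 21.2% and 24.8%. Without H2O2 replicate 3 there were 5 higher, and 1 higher was left without either Doxo array or without H2O2 replicate 1. Doxo replicate 2 left out also reduced the lower genes to 2.

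Of 38 genes of G2 and mitosis 15 were lower in Doxo cells (39.5%) and 3 were higher (7.89%). Bub1, a kinase of the spindle checkpoint, read 4.30 and 4.44 in Doxo cells, against 8.46, 7.91, 6.26 and 8.02 in H2O2 cells, with a difference of -3.29 ± 0.45 (adjusted p = 1.9e-05). The H2O2 arrays except replicate 3 lay near the untreated values of 7.77 to 8.34. Smc2 and Smc4, the core of condensin, had differences of -3.22 and -3.08, Ttk, another checkpoint kinase, one of -2.23, and Nusap1, a spindle protein, one of -2.12. Top2a, the topoisomerase that Doxo traps, read 7.79 and 7.36 in Doxo cells and 9.35, 8.91, 8.47 and 9.37 in H2O2 cells (difference -1.45). Smc2 and Top2a carry CCAAT and CHR in the promoters printed above.

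Cdc20 and Espl1, whose promoters hold the same motifs, stood on the other side. Espl1, the protease that separates sister chromatids, read 7.53 and 7.43 in Doxo cells, against 5.83, 5.41, 6.79 and 6.36 in H2O2 cells and 7.21, 7.26, 7.63 and 7.84 in untreated cells. Its difference was 1.38 ± 0.38 (adjusted p = 0.0088), and the Doxo value was that of untreated cells. Cdc20, which activates the anaphase-promoting complex, read 10.09 and 10.26 in Doxo cells and 8.70, 8.34, 9.45 and 9.16 in H2O2 cells (difference 1.26, adjusted p = 0.0091). The phosphatase Cdc25b, which triggers entry into mitosis, had a difference of 0.89. The median of the 38 genes was 0.17, close to the 0.16 of all genes. Against untreated cells 18 of the 38 fell and 0 rose after Doxo, and 1 fell and 0 rose after H2O2. Without H2O2 replicate 3 there were 5 higher and 16 lower, without Doxo replicate 1 there were 1 and 13, and without Doxo replicate 2 there were 0 and 12.

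In the G1-S and replication genes the number of higher members depended on which H2O2 arrays were used. Mcm2, a subunit of the replicative helicase, read 8.98 and 9.04 in Doxo cells and 7.54, 6.62, 8.68 and 8.21 in H2O2 cells, and its difference of 1.24 passed (adjusted p = 0.015). Replicate 3 was the H2O2 array nearest to Doxo. Gins2 and Cdc6, which act with it at replication origins, and E2f1, the factor that drives S phase genes, had differences of 1.28, 1.38 and 0.79. Ccne2, an S phase cyclin, had a difference of -3.24 and Pola1, the catalytic subunit of DNA polymerase alpha, one of -1.95. Of 30 genes 4 were higher (13.3%) and 2 lower (6.67%), with a median of 0.62. With H2O2 replicates 1 and 2 only, 18 were higher and 2 lower, with a median of 1.08. With H2O2 replicates 3 and 4 only, 0 were higher and 1 lower, with a median of 0.14. Without H2O2 replicate 3, 14 were higher, and 0 to 4 were higher and 1 to 3 lower when each other array was left out.

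**Figure D2:**
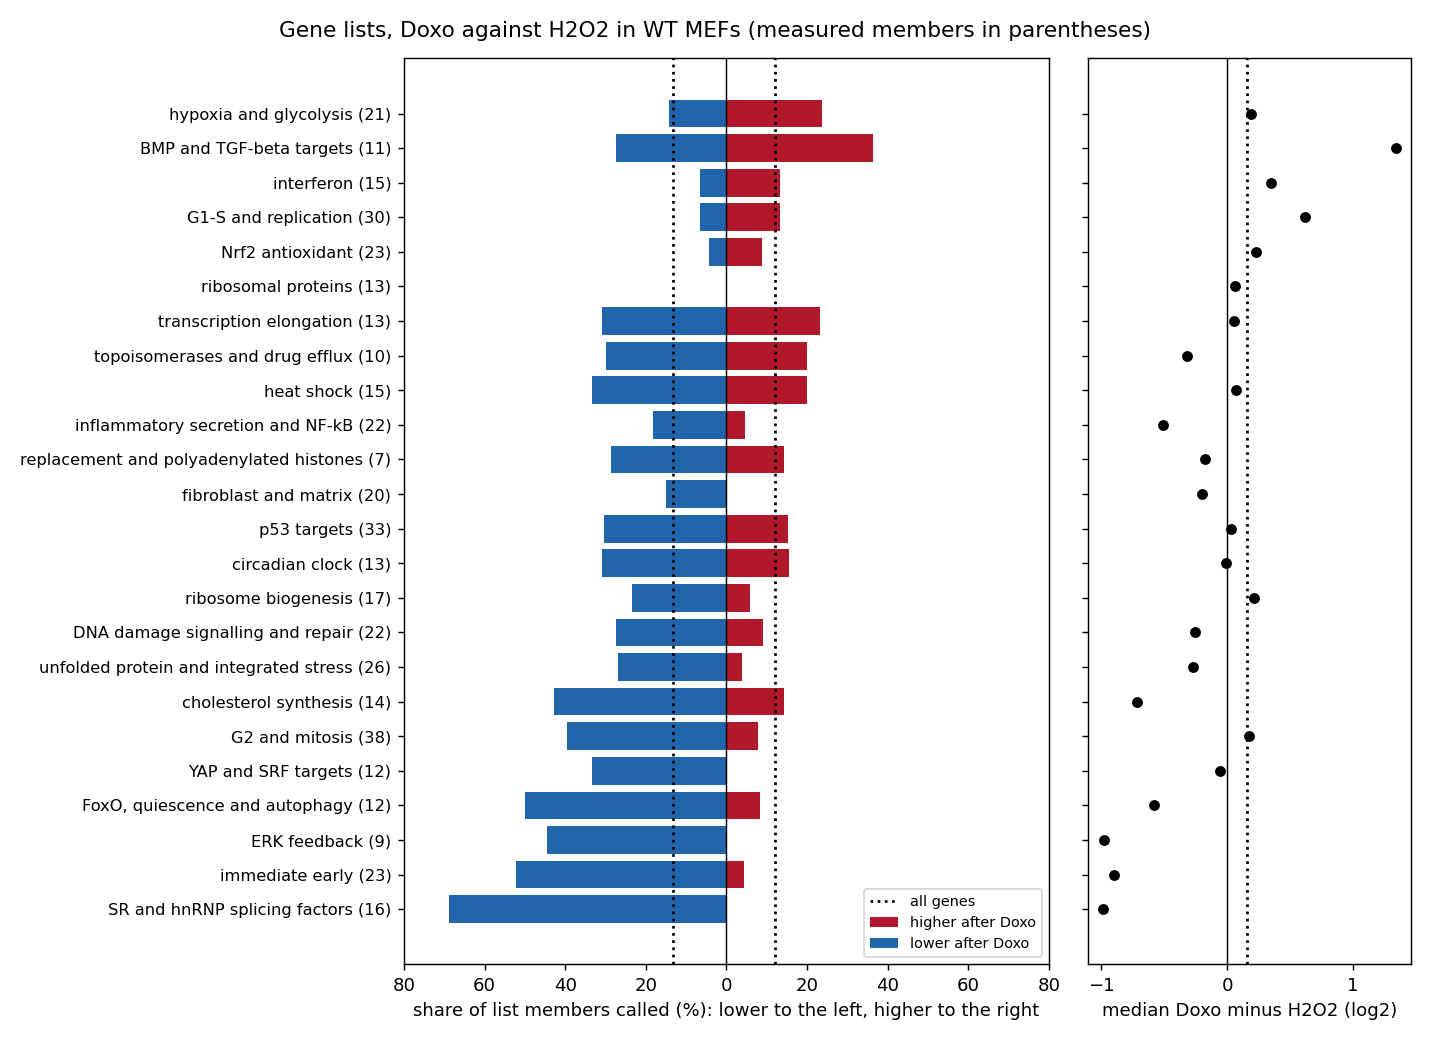
Left, share of each list's measured genes (%) called higher (bars to the right) and lower (bars to the left) in Doxo than in H2O2 cells, with dotted lines at the shares of all genes. Right, the list's median difference (log2, dotted line at the median of all genes). The splicing factors had 11 of 16 genes lower and 0 higher, and the p53 targets had 5 higher and 10 lower of 33.

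RNA-binding and splicing factors were among the transcripts most reduced in Doxo cells. Rbm39, a splicing factor, read 5.04 and 4.65 in Doxo cells, against 9.69, 9.88, 6.84 and 9.10 in H2O2 cells, a difference of -4.03 ± 0.67 (adjusted p = 0.00012). Clk1, a kinase that phosphorylates SR proteins, read 4.91 and 5.39 in Doxo cells and 9.80, 9.67, 6.95 and 9.09 in H2O2 cells (difference -3.73). In both genes H2O2 replicate 3 lay between the remaining H2O2 arrays and the Doxo arrays. Of 16 SR and hnRNP genes, whose proteins bind pre-mRNA, 11 were lower (68.8%) and 0 higher, with a median of -0.99. Among well expressed genes 24.8% were lower. Hnrnph1 (-2.54), Hnrnpa3 (-1.89), Hnrnpm (-1.73) and Srsf1 (-1.59) were examples. The number lower lay between 8 and 13 when each array was left out in turn.

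Of 13 genes of transcription elongation 3 were higher in Doxo cells, 4 were lower and 6 were not called. Hexim1, which holds the elongation kinase P-TEFb inactive, read 8.48 and 8.35 in Doxo cells, against 5.85, 6.63, 6.13 and 5.92 in H2O2 cells and 7.48, 7.73, 7.39 and 7.41 in untreated cells. The Doxo arrays lay above the untreated ones and the H2O2 arrays below them, and the agents differed by 2.28 ± 0.25 (adjusted p = 1.3e-06). Polr2a, the largest subunit of RNA polymerase II, had a difference of 1.36, and Supt5, an elongation factor, one of 0.60. Ccnt1 and Ccnt2, the cyclins of P-TEFb, had differences of -2.05 and -2.29, and Aff4 and Ell2, parts of the super elongation complex, had differences of -3.39 and -2.36. The shares of 23.1% and 30.8% were near those of well expressed genes, 21.2% and 24.8%. When each array was left out in turn 2 to 3 were higher and 3 to 4 lower.

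Among the 12 largest rises and 12 largest falls, Wrap73, a protein of the centrosome, had the largest positive difference. It read 8.54 and 8.72 in Doxo cells, against 5.04, 5.28, 6.45 and 6.01 in H2O2 cells and 6.34, 5.96, 6.38 and 6.48 in untreated cells. Its difference was 2.94 ± 0.30 (adjusted p = 7.1e-07). The other rises were Hspa1b, Mxd3 (2.70), a member of the MAX network, Abtb2 (2.66), Nudt22 (2.56), Id4, Bambi, Fam102a (2.41), Cebpd (2.31), Hexim1, Dipk1b (2.19) and Pagr1a (2.16). Fnip1, a partner of folliculin, had the most negative difference, reading 3.65 and 3.83 in Doxo cells, against 9.61, 8.74, 6.68 and 8.96 in H2O2 cells and 7.91, 7.49, 7.01 and 6.90 in untreated cells. The difference was -4.76 ± 0.69 (adjusted p = 3e-05). Both Doxo values lay under the medians of all probe sets on their arrays, 4.41 and 4.44, and near the lower quartiles of 3.46 and 3.51. No detection call was used here, so that whether such dim values stand above background is not known, and the order of the falls is that of the RMA values only. Tcim, a regulator of Wnt signalling, followed with a difference of -4.16 and arrays at 5.24 and 5.62 in Doxo cells and 10.27, 9.81, 8.74 and 9.54 in H2O2 cells. The remaining falls were Ube2v2 (-4.11), Rbm39, Tnfrsf11b (-3.97), Cops2 (-3.91), Ptgs2, Marchf7 (-3.80), Nufip2 (-3.79), the long non-coding RNAs Tug1 (-3.79) and Mir100hg (-3.77), and Flrt2 (-3.77). Cops2, a subunit of the COP9 signalosome, read 2.86 and 3.56 in Doxo cells and 8.57, 8.37, 4.17 and 7.37 in H2O2 cells, and its difference was -4.90 without replicate 3. Its Doxo values were likewise among the dim ones.

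Genes specific to one agent were sorted by 3 comparisons, which share the untreated and the treated arrays, so that their numbers are descriptions. A gene is Doxo-specific where it was called between the agents and, in the same direction, between Doxo and untreated cells, with under 1.5-fold change after H2O2. There were 1426 such genes up and 1719 down. H2O2-specific genes, defined in the mirror way, numbered 100 up and 109 down. Both called comparisons of the Doxo-specific class hold the Doxo array set. In the H2O2-specific class the called change from untreated cells does not involve the Doxo arrays. The sizes of the 2 classes therefore cannot be read as the sizes of the 2 responses. In 26 genes the agents moved the level in opposite directions, 13 being up after Doxo and 13 up after H2O2, and 921 called genes fell in none of these classes. Without H2O2 replicate 3 the Doxo-specific genes were 1766 up and 1864 down, the H2O2-specific genes 114 up and 162 down, and the opposed genes 70. Without Doxo replicate 2 they were 1593, 133 and 11.

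The genes leading the Doxo-specific rises have varied functions. Fam102a read 7.02 and 7.13 in Doxo cells, against 4.04, 4.66, 5.10 and 4.85 in H2O2 cells and 4.84, 5.31, 4.91 and 4.94 in untreated cells. Fgf18, a secreted growth factor, read 6.38 and 5.84 in Doxo cells and 3.97, 4.72, 3.78 and 3.75 in H2O2 cells (difference 2.05). Nfkbie, an inhibitor of NF-kB, had a difference of 1.94, its H2O2 arrays spreading between 3.21 and 5.44. Slc9a3r1, a scaffold of membrane proteins (2.04), Def6 (2.02), Tmem51 (1.97), Slc27a3, of the fatty acid transporter family (1.94), Ttll1, which adds glutamates to tubulin (1.93), Ift27, of the ciliary transport machinery (1.93), and Dipk1b completed the 10. For each of the 10 both Doxo arrays lay above all H2O2 arrays, which the choice of genes required.

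The Doxo-specific falls were led by genes expressed in H2O2 and untreated cells alike. Ube2v2, a partner of ubiquitin-conjugating enzymes in DNA damage tolerance, read 4.34 and 4.19 in Doxo cells, against 9.61, 9.29, 5.93 and 8.69 in H2O2 cells and 9.46, 8.89, 8.47 and 8.22 in untreated cells. Tnfrsf11b, the decoy receptor osteoprotegerin, read 4.33 and 4.82 in Doxo cells and 9.51, 9.09, 7.14 and 8.46 in H2O2 cells. H2O2 replicate 3 was the lowest H2O2 array in both. Rbm39, Cops2, Marchf7, Nufip2, Flrt2 and Clk1 belonged to the 10, with Fpgt (-3.74) and the fatty acid activating enzyme Acsl4 (-3.72).

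Gadd45a and Mdm2 led the H2O2-specific rises with 2610528A11Rik, at 4.04 and 4.49 in Doxo cells, 7.05, 6.91, 6.75 and 6.63 in H2O2 cells, and 3.73, 3.60, 4.08 and 3.86 in untreated cells. Ppp1r10, a subunit that directs protein phosphatase 1 to the nucleus, read 7.42 and 7.36 in Doxo cells and 9.43, 8.84, 9.44 and 9.48 in H2O2 cells (difference -1.91, adjusted p = 2.3e-05). The untreated arrays, between 7.04 and 7.53, lay at the Doxo level. Bcl6, a transcriptional repressor, had a difference of -1.69, Apobr, a lipoprotein receptor, one of -1.84, and Ovgp1, an oviduct glycoprotein, one of -2.06. The unnamed transcripts 5031425E22Rik (-2.10) and 5430416N02Rik (-1.90) and the receptor Eda2r completed the 10.

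The H2O2-specific falls included Bambi and Id4 and the transcription factor Cebpd, which read 8.39 and 8.84 in Doxo cells, against 5.42, 6.52, 6.87 and 6.42 in H2O2 cells and 8.07, 9.0, 8.23 and 8.37 in untreated cells. Fasn, the fatty acid synthase, read 9.31 and 9.28 in Doxo cells and 7.85, 6.94, 8.21 and 7.65 in H2O2 cells (difference 1.63, adjusted p = 0.00079). Untreated cells stood at 9.60, 9.48, 9.46 and 9.46, a little above both Doxo arrays and far above all H2O2 arrays. Tubb4b, a beta-tubulin, had a difference of 1.45, as did Hspa2, an HSP70 protein of the germ line, with Dus1l, a tRNA-modifying enzyme (1.55), Fhod1, a formin that binds actin (1.55), and Coa7, of mitochondrial complex assembly (1.52), close to them. For Pcnx4 the probe sets disagreed, with differences between -1.75 and 1.44.

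Opposed genes moved away from the untreated level on both sides. Rbbp6, a ubiquitin ligase that binds p53 and Rb, read 4.19 and 4.13 in Doxo cells, against 6.76, 6.57, 7.09 and 7.52 in H2O2 cells and 5.38, 5.59, 5.76 and 6.00 in untreated cells. No group overlapped another, and the agents differed by -2.82 ± 0.21 (adjusted p = 3.7e-08). Ier5, an early response gene, read 4.72 and 3.82 in Doxo cells and 7.51, 6.64, 6.33 and 7.22 in H2O2 cells (difference -2.65). The zinc exporter Slc30a1 (-3.15), the host of small nucleolar RNAs Snhg5 (-2.52), Amn1 (-2.48), the histone methyltransferase Nsd3 (-2.30), Ifrd1 (-2.03), the polyadenylation factor Cstf3 (-2.01) and Rev1, a DNA polymerase of translesion synthesis (-1.97), were likewise down after Doxo and up after H2O2. Hexim1 was the only one of the 10 that was up after Doxo.

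Stress programmes of the cytoplasm gave mixed differences. Atf3, a transcription factor of the integrated stress response, read 6.68 and 6.71 in Doxo cells, against 8.38, 9.13, 8.77 and 8.30 in H2O2 cells and 5.81, 5.62, 5.75 and 5.99 in untreated cells. It rose after both agents, by 0.90 after Doxo and by 2.85 after H2O2, and the agents differed by -1.95 ± 0.33 (adjusted p = 0.00015). Ppp1r15a, the phosphatase subunit that reverses the block of translation, had a difference of -1.65 and Ddit3, a factor that promotes cell death, one of -0.97. The endoplasmic reticulum chaperones Hsp90b1 (-1.76), Hspa5 (-0.89) and Dnajb9 (-1.69) and the lipoprotein receptor Vldlr (-1.13) were lower, and the mitochondrial enzyme Shmt2 was higher (1.0). Of 26 genes 1 was higher (3.85%) and 7 lower (26.9%). Leaving out each array in turn gave 0 to 5 higher and 4 to 7 lower. There were 5 higher without H2O2 replicate 3 and 4 lower without Doxo replicate 2.

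Hmox1, the heme oxygenase that oxidants induce, read 9.05 and 8.89 in Doxo cells and 9.03, 10.07, 9.57 and 9.36 in H2O2 cells. Both groups stood above the untreated arrays, at 6.16, 7.38, 7.38 and 8.11, and the direct difference of -0.54 ± 0.42 did not pass (adjusted p = 0.35). Of 23 Nrf2 antioxidant genes 2 were higher (8.7%), the glutathione transferase Gstm1 (1.47) and the biliverdin reductase Blvrb (0.77). Only 1 was lower (4.35%), the malic enzyme Me1 (-0.84). None of the 3 was called without either Doxo array or without H2O2 replicate 1.

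In cholesterol synthesis 2 of 14 genes were higher (14.3%) and 6 lower (42.9%). Idi1, which isomerizes isoprene units, read 4.39 and 4.67 in Doxo cells, against 7.96, 6.89, 6.00 and 7.29 in H2O2 cells, with a difference of -2.50 ± 0.51 (adjusted p = 0.00098). The untreated arrays were higher than either group, between 7.41 and 9.28, except that H2O2 replicate 1 lay within their range. Insig1 (-1.83), Stard4 (-1.55), Msmo1 (-1.38), Cyp51 (-0.88) and Sc5d (-0.74), which sense, carry or make sterols, were lower, and the synthetic enzymes Mvd (1.06) and Dhcr7 (0.94) were higher. Leaving out each array in turn gave 0 to 2 higher and 3 to 7 lower, the fewest without Doxo replicate 2.

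Of 21 genes of hypoxia and glycolysis 5 were higher (23.8%) and 3 lower (14.3%). Vegfa, the angiogenic growth factor, read 6.71 and 6.62 in Doxo cells, against 9.47, 9.46, 8.21 and 8.83 in H2O2 cells (difference -2.33, adjusted p = 0.00011). The untreated arrays, at 7.78 to 8.40, lay above the Doxo arrays and overlapped H2O2 replicate 3. The histone demethylase Kdm3a (-1.32) and the hexokinase Hk2 (-1.53) were lower. Ankrd37 (1.33), the phosphofructokinases Pfkl (1.12) and Pfkp (0.62), the glucose transporter Slc2a1 (0.74) and the carbonic anhydrase Car9 (0.69) were higher. Centring the Doxo arrays by level left 1 of these 5 higher, a setting chosen after the values were seen, and leaving out Doxo replicate 2 left 1 higher and 1 lower.

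Of 12 genes of FoxO signalling, quiescence and autophagy 1 was higher in Doxo cells and 6 were lower (50%). Ccng2, a cyclin that restrains division, read 7.66 and 7.13 in Doxo cells, against 8.59, 9.07, 8.53 and 8.69 in H2O2 cells and 7.58, 7.70, 7.46 and 7.45 in untreated cells (difference -1.33, adjusted p = 2e-04). Fbxo32, a ubiquitin ligase of muscle wasting, had a difference of -1.89, Cited2, a transcriptional coregulator, one of -1.36, the inhibitor Cdkn1b one of -0.92 and Txnip, which binds thioredoxin, one of -0.64. Ulk1, a kinase that starts autophagy, was higher with 8.51 and 8.37 in Doxo cells and 7.61, 7.84, 7.71 and 7.62 in H2O2 cells. Without Doxo replicate 2, 0 of the 12 genes were higher and 3 lower. Of 13 clock genes 2 were higher, the output factors Dbp (1.75) and Tef (0.59), and 4 lower, namely Nr1d2 (-3.17), Bhlhe40 (-2.72), Clock (-2.45) and Arntl (-2.05). These shares, 15.4% and 30.8%, were near those of well expressed genes, and the median was -0.01. Without Doxo replicate 2 none was higher and 3 were lower.

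Of 22 genes of DNA damage signalling and repair 2 were higher in Doxo cells (9.09%), 6 were lower (27.3%) and 14 were not called, the share lower being near the 24.8% of well expressed genes. Nbn, a sensor of DNA breaks, read 4.51 and 4.49 in Doxo cells, against 7.15, 6.30, 5.93 and 7.15 in H2O2 cells and 7.33, 6.98, 7.16 and 6.92 in untreated cells (difference -2.13, adjusted p = 2.9e-05). The checkpoint kinases Chek1 (-2.22) and Atr (-1.46), the ligase Lig4 (-1.76), Brca1 (-0.97) and the helicase Blm (-0.74) were also lower, and Parp1 (1.04) and Ddb1 (0.65) were higher. Without Doxo replicate 2, 1 of the 22 was higher and 2 were lower, and without H2O2 replicate 2 none was higher. Among 10 topoisomerases and efflux genes, Top1 (-2.08), Top2a and Tdp2 (-1.42), which frees topoisomerase II from DNA ends, were lower, and Top3a (0.60) and Top3b (0.72) were higher. Leaving out each array in turn gave 1 to 2 higher and 2 to 5 lower.

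Of 13 ribosomal protein genes 0 were called, with a median of 0.06, which turned to -0.05 when the median difference of all probe sets was subtracted. Of 17 genes of ribosome biogenesis 1 was higher and 4 lower (5.88% and 23.5%), with 3 higher without H2O2 replicate 3. Of 20 fibroblast and matrix genes 3 were lower, the matricellular protein Postn (-2.38), the collagen crosslinker Lox (-1.62) and the protease Fap (-2.23), and between 1 and 6 were lower without each array in turn, 6 without H2O2 replicate 3. The 15 interferon genes had 2 higher (13.3%) and 1 lower (6.67%), and the 7 histone genes 1 (14.3%) and 2 (28.6%). Of 277 zinc finger genes named Zfp, 30 were higher (10.8%) and 50 lower (18.1%), with a median of -0.15, and without Doxo replicate 2 there were 12 and 31.

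**Figure D3:**
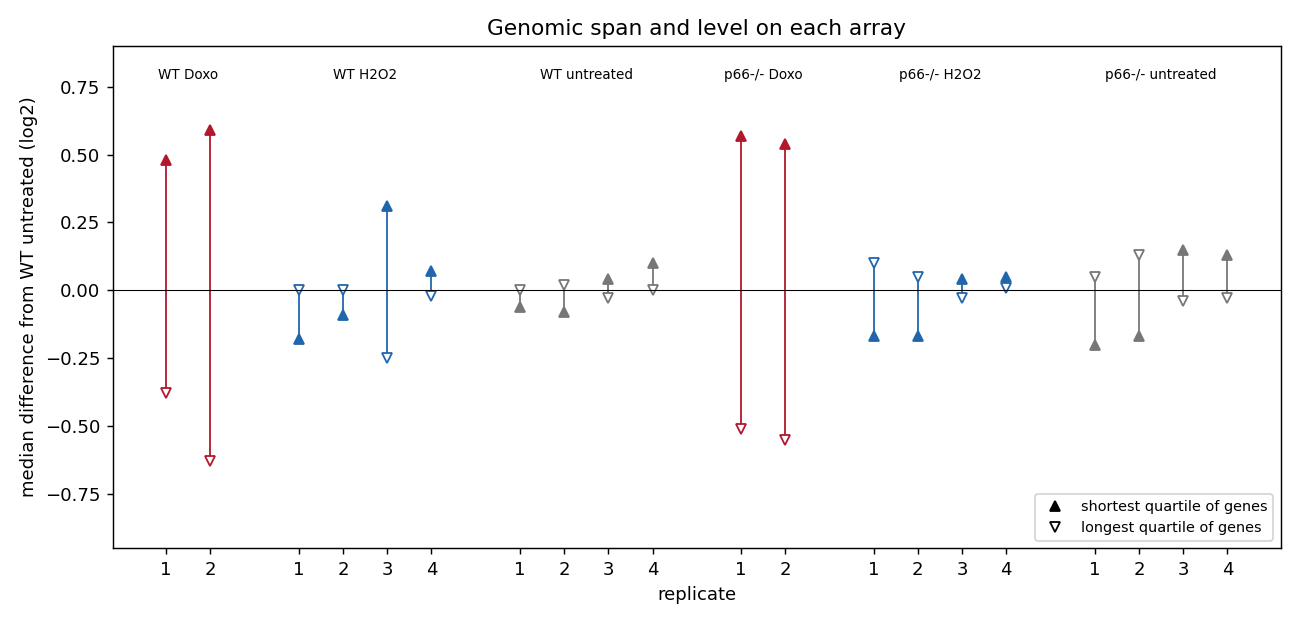
Median difference from the untreated WT mean (log2) of the shortest quartile of genes by genomic span (filled triangles) and of the longest quartile (open triangles) on each WT and p66-/- array. On the 4 Doxo arrays the longest quartile lay lower than the shortest by a difference between -0.86 and -1.22, and on WT H2O2 replicate 3 by -0.56.

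The difference between the agents followed the length of the gene. Among genes with a mean of at least 6 in either group, the median difference was 0.52 in the quartile with the shortest genomic span (up to 7.87 kb), 0.33 in the next (to 20.1 kb), 0.02 in the following one (to 50.4 kb) and -0.45 in the longest. The share of genes higher in Doxo cells was 34.4% in the shortest quartile and 7.95% in the longest, and the share lower was 9.23% and 40.5%. Against untreated cells the medians ran from 0.55 to -0.51 across the quartiles for Doxo and from 0.02 to -0.07 for H2O2. Without a limit on the level the difference between longest and shortest genes was -0.24, instead of -0.97. Doxo-specific genes had a median span of 11.5 kb where up and 42.8 kb where down, against 20.1 kb for all genes. H2O2 replicate 3 shared the pattern in part, with a contrast of long and short genes of -0.56, where the other H2O2 arrays had 0.17, 0.09 and -0.09. The contrast also followed the replicate number without any agent. Untreated replicates 1 to 4 had 0.06, 0.10, -0.07 and -0.11 in WT cells and 0.25, 0.30, -0.19 and -0.16 in p66-/- cells. In the H2O2 groups of both genotypes replicates 1 and 2 were likewise positive and replicates 3 and 4 negative. Centring the Doxo arrays by level, a setting chosen after the values were seen, gave -0.95 for the WT contrast of long and short genes, about as large as the -0.97 without it. Whether RNA quality took part was not tested, and array set and agent cannot be told apart.

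The same contrast in p66-/- MEFs, which shares no array with the WT contrast but the array sets, called 3013 genes higher (17.6%) and 2626 lower (15.4%). Of the 4301 genes called in WT cells 3755 were called in the same direction in p66-/- cells, which is 87.3% of the WT and 66.6% of the p66-/- genes, and 0 were called in the opposite direction. Fnip1 read 4.11 and 3.71 in Doxo cells and 8.46, 9.42, 7.89 and 7.76 in H2O2 cells of this genotype, and Wrap73 read 8.75 and 8.55 in Doxo cells and 5.97, 5.68, 6.28 and 6.41 in H2O2 cells. Both genes thus kept their sides with no overlap. Gadd45a had a difference of -2.60 in p66-/- cells and Mdm2 one of -1.83, with Bub1 at -3.15.

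**Figure D4:**
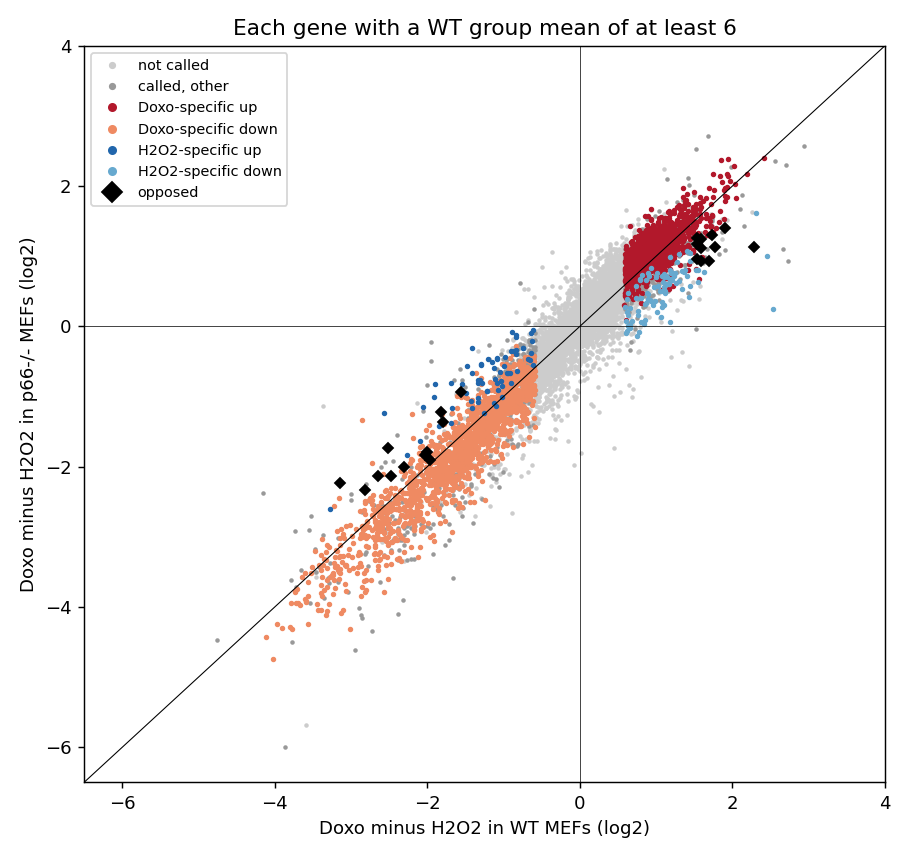
Difference Doxo minus H2O2 (log2) in WT MEFs (horizontal axis) and in p66-/- MEFs (vertical axis), 1 point for each gene with a WT group mean of at least 6, coloured by its class in WT cells. The line marks equal values. Doxo-specific genes lie along it, and of the 4301 genes called in WT cells 0 were called in the opposite direction.

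No difference between the genotypes was called for any gene (0%). In the limma fit 2481 of 45037 probe sets had an unadjusted p under 0.05, where chance alone would give a share of 0.05. The lowest adjusted p was 0.062. Values set side by side still differed for some genes. Hspa1b had a difference of 2.73 in WT cells and 0.94 in p66-/- cells (adjusted p = 0.14), Id4 2.54 and 0.25, Bambi 2.46 and 1.01, and Atf3 -1.95 and -0.22. Their tests of the difference between genotypes gave adjusted p-values of 0.88, 0.94, 0.89 and 0.67, and with 2 Doxo arrays per genotype a difference of this size was not shown either way.

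Markers of the cells themselves were checked beside these results. The 20 fibroblast and matrix genes had a summed level of 15.67 to 15.69 in Doxo cells and 15.64 to 16.09 in H2O2 cells (log2), with 17 and 19 of the 20 above 6. The 7 macrophage markers summed to 10.48 and 11.30 in Doxo cells, against 8.09 to 11.24 in H2O2 cells and 8.10 to 11.21 in untreated cells, so that the groups overlapped. Markers of neural cells (7.93 to 8.34 in Doxo cells, 6.96 to 7.39 in H2O2 cells) and skeletal muscle (8.26 to 8.67 and 6.98 to 8.08) were higher on both Doxo arrays than on any H2O2 array, with 0 members called. The 6 epithelial markers summed to 8.65 to 8.68 in Doxo cells and 7.65 to 8.54 in H2O2 cells, and 1 was called, Krt14 with a difference of 0.65 at a low level. Of 4 adipocyte markers Cebpa was higher (1.24) and Adipoq lower (-1.03), and the sums overlapped, at 7.16 to 7.22 in Doxo cells and 6.61 to 7.18 in H2O2 cells. By contrast 0 of 6 endothelial markers passed 6 in either group. The part of other cell types in the differences was not tested. Fewer cells of a type and less RNA per cell cannot be told apart in such bulk samples.

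The Y-linked gene Eif2s3y read 3.71 and 3.60 in Doxo cells, against 8.45, 8.30, 5.52 and 6.40 in H2O2 cells, a called difference of -3.51 (adjusted p = 0.04). Xist, the RNA of the inactive X chromosome, read 7.75 and 8.85 in Doxo cells and 9.73, 9.86, 8.31 and 9.95 in H2O2 cells, with a difference of -1.16 that did not pass (adjusted p = 0.51). The labels do not give the sex of the embryos, and the share of male cells in the preparations cannot be told apart from the agent for Y-linked genes.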

How the data were processed

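RNA of MEFs had been hybridized to Affymetrix MG-430 PM array strips. The values deposited by the authors are on the log2 scale, between 1.953 and 13.47, and were made with RMA in Partek 6.5 according to the submitters' processing notes. RMA subtracts background and is meant to bring the arrays to a common distribution, which can remove a shift of all transcripts together. The deposited values were not on a common distribution, with upper quartiles of 6.20 on the Doxo arrays and 6.50 on the others. The values were used as they stand. Precision rests on the number of arrays, since such signals carry no read depth. Of 45141 probe sets 104 controls were left out. A single symbol was found for 28898 probe sets (17097 genes), several for 551 and none for 15588, and probe sets with several or none entered only the counts of probe sets. The members and gene lists were chosen with earlier results of these data known.

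limma 3.58.1 in R 4.3.3 fitted the means of 8 groups over all 28 arrays, so that p66-/- and p53-/- arrays contributed to the spread, and p-values were adjusted by Benjamini-Hochberg over all 45037 probe sets. Named genes were the 12 largest called rises and 12 largest called falls whose Doxo and H2O2 arrays did not overlap and whose higher mean was at least 6. To these were added the 10 largest differences of each agent-specific class, the list members with the lowest adjusted p (at most 6 per list), called members against their list's main direction, and 6 reference genes. Other list members named in the text were chosen after their values were seen. Replicate numbers were not used to pair Doxo with H2O2 arrays. The deviations of same-numbered WT arrays correlated at 0.09 and -0.09. With 2 Doxo arrays the deviations of 1 mirror those of the other, so that this cannot decide whether the arrays are paired. A replicate block in the fit called 12379 probe sets. On simulated data for the WT contrast over 45037 probe sets, 78 of 100 changes of 1 and 94 of 100 changes of 2 on the log2 scale were called, and 4 of 44837 unchanged probe sets. The simulation gave all groups the same spread and no offset between array sets. Its rates therefore do not cover false calls from the array set or from a wider H2O2 group. Alternatives covered the test, the arrays fitted, filtering, normalization, centring, thresholds, array sets and leaving out each array. Genomic spans and promoter sequences came from RefSeq, build GRCm38.p6. The deposited p53-/- arrays were used for the spread only.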

Additional observations from a re-analysis of the deposited data

Results flagged for a closer look

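Among the 184 named genes, single arrays stood far from their group for 10 genes in WT H2O2 cells and 8 in WT untreated cells. The measure is the gap between the outermost array and its neighbour divided by the range of the 4 arrays, judged by Dixon's 95% critical value, and chance alone gives such a gap in about 1 of 20 groups.

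In WT H2O2 cells, replicate 3 was the lowest array for Chordc1 (ratio 0.894, level 8.10), Srsf1 (0.919, 10.81), Cyp51 (0.849, 8.18), Chek1 (0.873, 6.14) and Xist (0.863, 8.31). Replicate 1 was the lowest for Def6 (0.912, 4.97), Slc27a3 (0.946, 4.91), Gstm1 (0.843, 6.11) and Ddit3 (0.834, 9.17), and replicate 2 for Ppp1r10 (0.92, 8.84). In WT untreated cells, replicate 2 was the lowest for Dusp4 (0.938, 5.11), Bambi (0.891, 7.16) and Smad7 (0.884, 7.59). Replicate 1 was the highest for Tnfrsf11b (0.841, 9.66) and Fasn (0.842, 9.60). Replicate 4 was the highest for Apobr (0.85, 5.50) and Ankrd37 (0.96, 5.22) and the lowest for Amn1 (0.832, 6.25).

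The spike-in bioB, which no comparison used, averaged 8.07 on the 4 Doxo arrays and 7.16 on the 24 other arrays.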

How the results depend on the processing

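The main counts were 8218 probe sets called in WT cells (3450 higher, 4768 lower), 11414 in p66-/- cells, 0 for the difference between genotypes, 3145 Doxo-specific, 209 H2O2-specific and 26 opposed genes, and 244 list genes. Further quantile normalization, leaving out the dimmest 40% of probe sets, leaving out WT Doxo replicate 1 and fitting the 3 WT groups only moved none of the counts they could give by over 1.5 times. With the 3 WT groups the difference between genotypes cannot be had. Of the 184 named genes 181 were called, and none changed sign under the alternatives run. Their calls held less well than their signs. All 181 lost the call under the methods' test with adjusted p, 78 with the 2 compared groups only and 62 with H2O2 replicates 3 and 4 only.

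The methods' test on the 6 arrays gave 6391 in WT cells (2503 higher, 3888 lower) and 10633 in p66-/- cells at their own threshold of unadjusted p, and with adjusted p 0 in WT cells (0 higher, 0 lower, 0 list genes) and 7573 in p66-/- cells. A fit of the 2 compared groups only gave 3564 in WT cells (1138 and 2426) and 120 list genes. Subtracting the median difference gave 2120 higher and 5388 lower, and centring the Doxo arrays by level, chosen after the data were seen, gave 2069 higher and 5516 lower. The median of the ribosomal proteins turned to -0.05 on subtracting the median. The replicate block gave 12379 (5809 higher), 1 for the genotypes, 97 opposed and 376 list genes, and the array set as a random block gave 1 for the genotypes. H2O2 replicates 1 and 2 alone gave 5684 higher, 328 H2O2-specific and 76 opposed genes. H2O2 replicates 3 and 4 alone gave 4781 (1432 higher), 1 for the genotypes, 1641 Doxo-specific and 153 list genes.

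No fold threshold gave 13415 (7989 higher), 20598 in p66-/- cells and 5027 Doxo-specific genes. A 2-fold threshold gave 4584 (1071 higher), 6099 in p66-/- cells, 1768 Doxo-specific, 83 H2O2-specific and 4 opposed genes. Unadjusted p gave 771 for the genotypes, 318 H2O2-specific and 70 opposed genes. With 1 probe set per gene, which tests fewer features, there were 4445 (2125 and 2320) and 5723 in p66-/- cells. The difference in median between longest and shortest genes was -0.97, -0.95 with the Doxo arrays centred by level, and -0.24 without a limit on the level.

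Leaving out each array in turn gave 4319 to 10488 probe sets in WT cells (1606 to 4955 higher, 2713 to 5533 lower), 9085 to 12103 in p66-/- cells, 0 to 5 for the genotypes, 1593 to 3630 Doxo-specific, 133 to 276 H2O2-specific and 11 to 70 opposed genes, 120 to 298 list genes and a span difference of -1.11 to -0.78. The lowest WT counts came without Doxo replicate 2 and the highest without H2O2 replicate 3. The causes of these changes were not tested, beyond the fewer arrays or features that a setting leaves.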
